A study of Homo sapiens with 28 samples.

Results

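Histone genes were followed in 4 human cell lines from liver tumours (PLC/PRF/5, HuH7, Hep3B and HepG2), each grown as tumours in ovo and as cultures in vitro. The members were the rows of the deposited table whose symbols, in the older nomenclature, begin with HIST1H to HIST4H, H2AF, H3F3 or H1F. 80 of 18961 rows matched. They comprise 62 replication-dependent genes, 11 variant genes and 7 genes known from the germ line. A filter on low values, the same for all genes, was passed by 58 of the 62 replication-dependent genes, by all 11 variants and by 3 of the 7 germ-line genes. The members that did not pass were HIST1H4F, HIST1H4G, HIST2H2AC, HIST2H2BF, HIST3H3, H1FNT, H1FOO and H2AFB1.

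Each line gave 4 in ovo libraries and 3 in vitro libraries, 28 in all. For the in ovo groups, 1 line was grafted onto the chorioallantoic membrane of chick embryos of the white leghorn breed, a vascular membrane on which grafted cells form solid tumours. Grafting was at embryonic day 9 and the tumours were removed at day 18, and the labels name no further agent or allele in any group. The in vitro groups were plain cultures of the same lines. HepG2 was derived from a hepatoblastoma and the other 3 lines from liver carcinomas, and each line is 1 cell line, so the libraries of a group are repeats within that line and not separate patients. A tumour on the membrane can also hold chick cells, whose RNA was not measured here with amplicons of its own. RNA was extracted with a midi column kit from tumours and a mini column kit from cultures, so kit and condition cannot be told apart. The column headers open with a letter and a number, which was 3 or 4 for every tumour and 5 or 6 for every culture. What the number stands for is not given, and it too cannot be told apart from condition. The labels tie no library to its own egg or culture, so the p-values reflect how far these libraries spread, and that spread may be technical.

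Histones are the proteins around which nuclear DNA is wound. H2A, H2B, H3 and H4 form the core of the nucleosome, and the linker histone H1 binds where DNA enters and leaves it. Replication-dependent histone genes lie in clusters and are transcribed mainly while DNA is copied in S phase. Their short mRNAs lack introns and usually end in a conserved stem-loop, bound by the protein SLBP, in place of a poly(A) tail. Variant histones such as H2A.Z, H3.3, macroH2A and H1.0 come from genes outside the clusters, most of them with introns and polyadenylated mRNAs, and are made throughout the cell cycle and in resting cells. Some replication-dependent genes can also give polyadenylated mRNA when cells stop dividing.

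The stem-loop is shown because it is the feature by which replication-dependent mRNAs are known. It was searched as a 16-base motif after the coding sequence of GENCODE 29 transcripts. It was found in 28 replication-dependent genes, it was not found in 1 (HIST1H2BJ), and for 33 the annotated transcripts ended too early to tell. Among the variants it was found in H2AFX and not in the other 10, and among the germ-line genes it was found in HIST3H3. Over all protein-coding genes, histones included, 0.254% held the motif anywhere in a transcript, a wider search than that of the members. In the sequences that follow, capitals mark the stem and lower case the loop.
Form in 15 genes, among them HIST1H2AE, HIST1H2BG, HIST3H2A and HIST3H2BB: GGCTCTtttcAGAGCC
Form in 5 H4 genes, among them HIST1H4B and HIST1H4H: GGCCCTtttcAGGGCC
Form in 3 H4 genes, HIST1H4I, HIST2H4A and HIST2H4B: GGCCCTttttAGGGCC
Form in H2AFX: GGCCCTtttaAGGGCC

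Each gene was read through 1 amplicon, 55 to 202 bases long in the members, with a GC content of 44.8% to 75.2%. The median GC content was 61.7% in the replication-dependent genes and 55.1% over all amplicons. 73 of the 80 member amplicons lay within 1 exon (59 replication-dependent, 7 variant, 7 germ-line), against 45.5% of all amplicons placed. 4 spanned exons (H2AFV, H2AFZ, H3F3A and H2AFY2), and 3 could not be placed (HIST1H2BM, HIST1H3A and HIST1H3F). An amplicon within 1 exon has the same sequence in genomic DNA as in RNA, so reads from DNA cannot be told from reads of the mRNA by their sequence. Histone genes also resemble each other. 11 member amplicons matched 2 or more genes exactly, and 16 lay within 3 mismatches of another histone gene, so reads of these genes cannot be assigned with certainty. Exact pairs include HIST1H4J with HIST1H4K, HIST2H4A with HIST2H4B, HIST2H3A with HIST2H3C, and HIST2H2AA3 with HIST2H2AA4.

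The amplicon of HIST1H2AJ, an H2A gene whose reads weigh most in the sums given further on, is shown beside the same stretch of HIST1H2AI, its closest relative. Capitals mark the 2 bases that differ. The amplicon lies in the coding sequence at chr6:27814387-27814479, minus strand, GRCh38.
HIST1H2AJ: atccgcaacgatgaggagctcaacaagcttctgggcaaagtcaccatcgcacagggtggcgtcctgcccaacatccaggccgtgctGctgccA
HIST1H2AI: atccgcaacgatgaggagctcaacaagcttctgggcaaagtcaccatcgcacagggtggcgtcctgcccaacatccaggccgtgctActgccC
The amplicon of HIST1H3C, an H3 gene read in the tumours but hardly in the cultures of PLC/PRF/5, lies in the coding sequence at chr6:26045624-26045717, plus strand. It has 7 mismatches, in capitals, to HIST1H3B.
HIST1H3C: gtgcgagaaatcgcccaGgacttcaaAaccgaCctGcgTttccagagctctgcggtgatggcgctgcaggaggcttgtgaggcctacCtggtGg
HIST1H3B: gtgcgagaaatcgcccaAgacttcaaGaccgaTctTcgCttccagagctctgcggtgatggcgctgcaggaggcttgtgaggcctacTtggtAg

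Depth was 6085750 to 15086465 reads in the 16 tumour libraries and 6205368 to 8662998 reads in the 12 cultures. Levels are library-size-normalised read counts (CPM) after scaling by TMM, which sets libraries to a common level over most genes. 3 reads, taken as the floor, were 0.251 to 0.806 CPM on that scale. The scaling matters most in Hep3B, where the TMM factor was 0.431 to 0.701 in tumours and 1.09 to 1.16 in cultures. With totals alone in place of TMM, the median log2 fold change of all genes became -0.18 for HepG2, -0.74 for Hep3B, -0.13 for HuH7 and -0.07 for PLC/PRF/5. Hepatocyte markers were read in the cultures of all 4 lines. They were low in PLC/PRF/5 cultures, where 2 of them were at 0 and their sum was 22.4 to 29.2 CPM. Of 10 such markers, 9, 10, 8 and 7 were at 10 CPM or more in every tumour of HepG2, Hep3B, HuH7 and PLC/PRF/5, against 10, 10, 10 and 1 in every culture. The 2 erythroid markers in the table were at 0 in all 28 libraries. Levels of different amplicons are not compared with each other, since each has its own length and efficiency.

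The tumour library numbered 3 gave the highest replication-dependent sum of each line, by the widest margin in HepG2 and HuH7, and counts are therefore given with and without these 4 libraries. All 4 carry the letter D in their labels, which do not say what it stands for. Of 200 single calls followed, 198 were also calls of the same direction in a fit without all 4. Counts given without the 4 libraries numbered 3 come from that fit. Where a call is said to be lost without 1 tumour, that tumour alone was left out and the rest were kept. In such fits without the third tumour, HepG2 kept 57 of the followed calls and lost 7, and Hep3B kept 46 and lost 11. HuH7 kept 45 and lost 6, and PLC/PRF/5 kept 22 and lost 6. The 62 replication-dependent genes summed to 12539, 11474, 45260 and 12072 CPM in HepG2 tumours 1 to 4, against 5044, 4964 and 5123 CPM in HepG2 cultures. The sums were 6510, 11528, 18098 and 7778 CPM in Hep3B tumours, against 8749, 9103 and 8938 CPM in cultures. All 4 HepG2 tumours lay above every HepG2 culture, while the Hep3B tumours lay on both sides of the cultures. In HuH7 the sums were 9966, 7830.2, 32392 and 5508 CPM in tumours, against 10855, 10582 and 10298 CPM in cultures. In PLC/PRF/5 they were 10854, 10602, 15232 and 12928 CPM in tumours, against 9317, 6808 and 9698 CPM in cultures. 3 of the 4 HuH7 tumours lay under every HuH7 culture and the third lay above, and all PLC/PRF/5 tumours lay above the cultures.

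**Figure D1:**
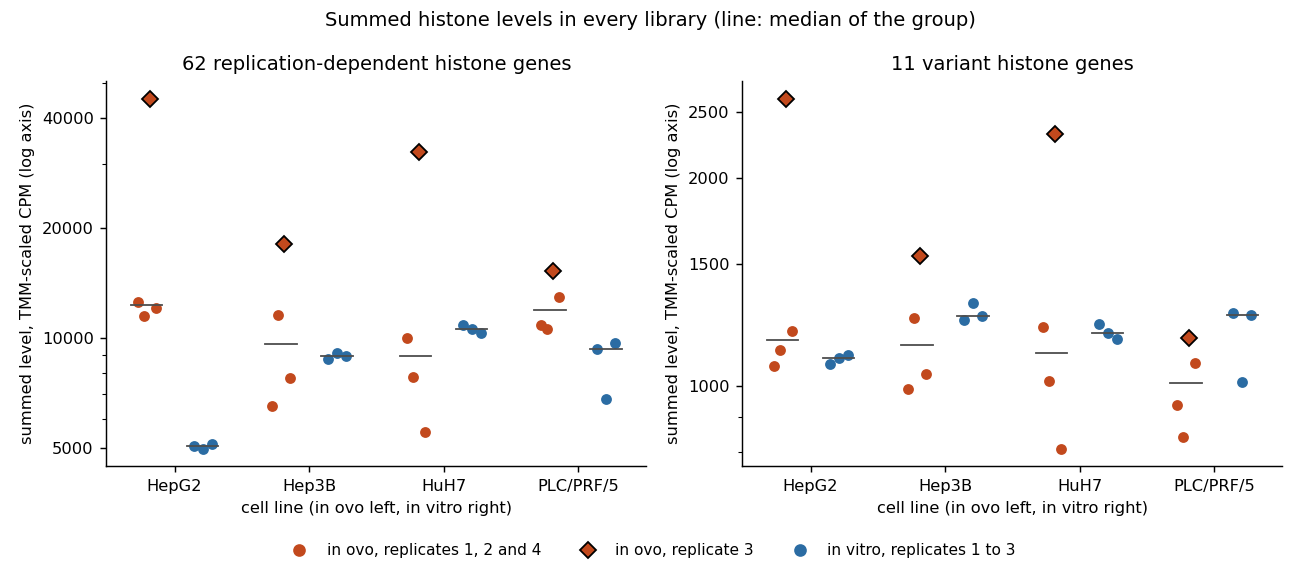
Summed level (TMM-scaled CPM, log axis) of the 62 replication-dependent genes (left) and the 11 variant genes (right) in every library, in ovo left and in vitro right within each line, with a bar at the group median. The in ovo library numbered 3 (diamond) is the highest replication-dependent sum of each line, at 45260 CPM in HepG2 and 15232 CPM in PLC/PRF/5.

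Unscaled, the replication-dependent genes took 1.34%, 1.09%, 3.09% and 1.02% of the reads in HepG2 tumours, against 0.51% to 0.55% in cultures. In Hep3B they took 0.41% to 0.78% of the reads in tumours, against 1.00% to 1.01% in cultures. The Hep3B tumours thus lay below their cultures as a share of reads and on both sides of them after TMM scaling. In HuH7 the shares were 0.90%, 0.85%, 2.47% and 0.76% in tumours, against 1.27% to 1.31% in cultures, and in PLC/PRF/5 they were 1.26% to 1.67% in tumours, against 1.04% to 1.34% in cultures. HIST1H2AJ alone gave 25.2% to 44.2% of these reads in HepG2 tumours, against 16.9% to 17.9% in cultures. Without it the HepG2 sums were 9385, 8371, 25265 and 8460.0 CPM in tumours, against 4190.4, 4074 and 4234 CPM in cultures, so the groups stayed apart.

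In the tumour libraries numbered 3, 48, 47, 52 and 44 of the 58 replication-dependent genes that passed the filter lay above the mean of the other 3 tumours of the line, for HepG2, Hep3B, HuH7 and PLC/PRF/5. The median difference was 0.85, 0.94, 1.39 and 0.26 on the log2(CPM + 1) scale. As a description over 58 amplicons that share libraries and base composition, the Spearman correlation of this difference with amplicon GC content was 0.30 for HepG2, 0.32 for Hep3B, 0.49 for HuH7 and 0.36 for PLC/PRF/5. Amplicons within 1 exon, histones left out, took 48.3%, 46.3%, 44.9% and 37.8% of the reads in these libraries, against 35.4% to 41.8% in the other tumours and 32.0% to 40.0% in the cultures, the PLC/PRF/5 value lying among those of its other tumours. The 392 olfactory receptor amplicons, whose genes these lines are not known to use, had reads for 5.61% to 51.8% of them in tumours and 2.04% to 7.91% in cultures. Their median level was 0 CPM in every library but 1, a HepG2 tumour at 0.161 CPM. The counts, median differences and correlations above were not computed over all genes, so they do not set histone genes apart. The part of base composition or genomic DNA in the histone values was not tested.

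The amplicon of HIST2H3A, an H3 gene, was chosen after its values were seen and is printed for its base composition, 75.2% GC and the highest of the members. It lies in the coding sequence at chr1:149852695-149852795, plus strand.
HIST2H3A: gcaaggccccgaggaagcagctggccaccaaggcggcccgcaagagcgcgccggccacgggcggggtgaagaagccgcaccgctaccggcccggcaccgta
It read 74.8, 40.0, 1199.6 and 48.1 CPM in HepG2 tumours, against 37.9, 33.4 and 36.1 CPM in cultures. It read 50.5, 31.1, 1381 and 16.2 CPM in HuH7 tumours, against 136, 124 and 145 CPM in cultures. The PLC/PRF/5 libraries read 65.1, 107, 1399 and 96.2 CPM in tumours, against 134, 81.0 and 137 CPM in cultures. Hep3B did not show this, with 109, 28.7, 24.99 and 24.1 CPM in tumours, against 125, 125 and 127 CPM in cultures. The HIST2H3C amplicon, which matches the same pair of genes at another position and has a GC content of 67.1%, read 38.7, 36.2, 273 and 45.7 CPM in HepG2 tumours, against 8.55, 9.79 and 9.15 CPM in cultures. HIST2H3A was not called in any line (limma, adjusted p = 0.22 to 0.79), while HIST2H3C was called in HepG2 (log2 fold change 2.70 ± 0.64 SE, adjusted p = 0.0026). Without the 4 libraries numbered 3, HIST2H3A was called lower in Hep3B (-1.56 ± 0.41, limma adjusted p = 0.0025) and HuH7 (-2.15 ± 0.41, limma adjusted p = 0.00017), and HIST2H3C was called higher in HepG2 (2.04 ± 0.20), Hep3B (1.05 ± 0.20) and PLC/PRF/5 (0.91 ± 0.20). The 2 amplicons thus differed in direction in Hep3B although they match the same pair of genes.

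**Figure D2:**
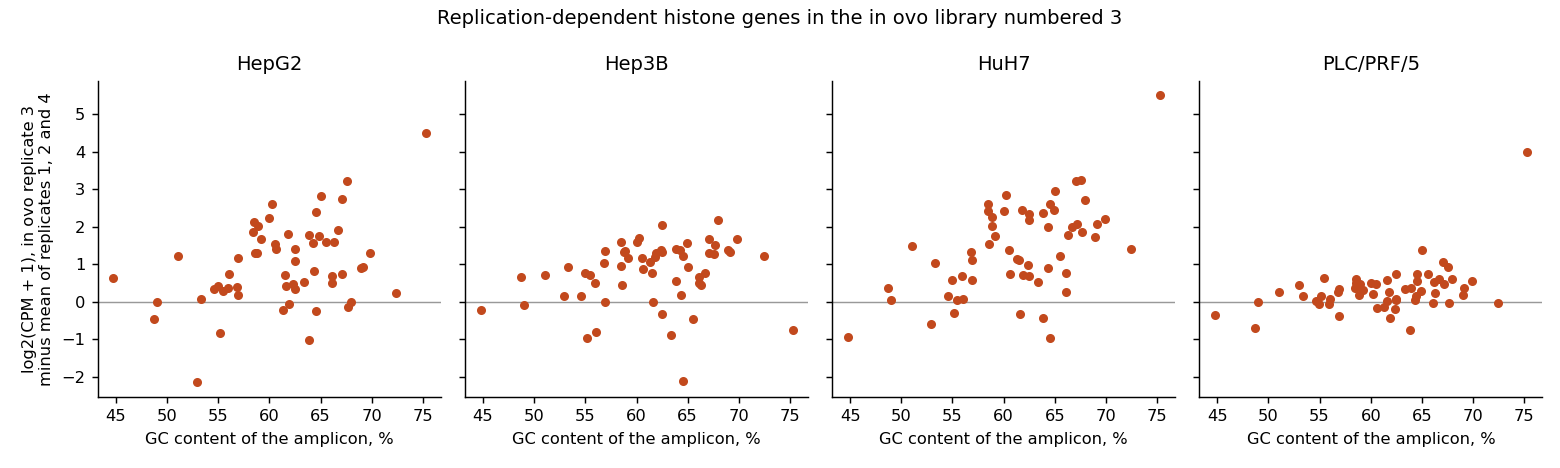
Each point is a replication-dependent gene: the GC content of its amplicon in % (x axis) and its log2(CPM + 1) in the in ovo library numbered 3 minus the mean of in ovo libraries 1, 2 and 4 of the same line (y axis). Most points lie above 0 in each line (48, 47, 52 and 44 of 58), and the amplicon at 75.2% GC, HIST2H3A, lies far above the others in HepG2, HuH7 and PLC/PRF/5 but not in Hep3B.

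The response of the replication-dependent genes differed between lines. The threshold for a call was an adjusted p below 0.05 in a limma fit over all 28 libraries, with Benjamini-Hochberg adjustment over all 13100 genes that passed the filter. In HepG2 tumours 40 of 58 replication-dependent genes were called higher and 1 lower, with a median log2 fold change of 1.41, against 12.6% of all genes tested called higher and 12.4% lower, whose median was 0.00. Without the 4 libraries numbered 3 the count was 44 higher and 1 lower, with a median of 1.13, against 17.5% and 16.2% of all genes. All 40 were among the 44. With the third HepG2 tumour alone left out, 28 were called higher and 1 lower. With totals alone 39 were called higher, 38 of them among the 40.

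In Hep3B 10 genes were called higher and 8 lower, with a median of 0.27, against 25.3% higher and 26.7% lower over all genes, and this split turned to 1 higher and 26 lower with totals alone, against 9.2% and 52.1% of all genes, and to 3 higher and 26 lower after removal of the GC and length trends across amplicons, against 22.4% and 22.1%. Without the 4 libraries numbered 3 the Hep3B count was 13 higher and 14 lower, against 29.3% and 30.5%, and with the third Hep3B tumour alone left out it was 3 higher and 9 lower. In HuH7 1 gene was called higher and 11 lower, against 23.9% higher and 19.5% lower over all genes. The HuH7 count without the 4 libraries numbered 3 was 2 higher and 22 lower, with a median of -0.35, against 27.9% and 22.2% of all genes. With the third HuH7 tumour alone left out it was 2 higher and 12 lower, and after removal of the GC and length trends it was 3 higher and 28 lower, against 23.1% and 17.4%. In PLC/PRF/5 4 genes were called higher and 1 lower, against 11.7% and 5.62%. That count without the 4 libraries numbered 3 was 13 higher and 1 lower, against 18% and 11.2%, and with the third PLC/PRF/5 tumour alone left out it was 3 higher and 1 lower. As a mean over the lines, 31 genes were called higher and 3 lower, against 34.4% and 31.9%, and without the 4 libraries numbered 3, 30 and 9, against 36.5% and 32%.

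**Figure D3:**
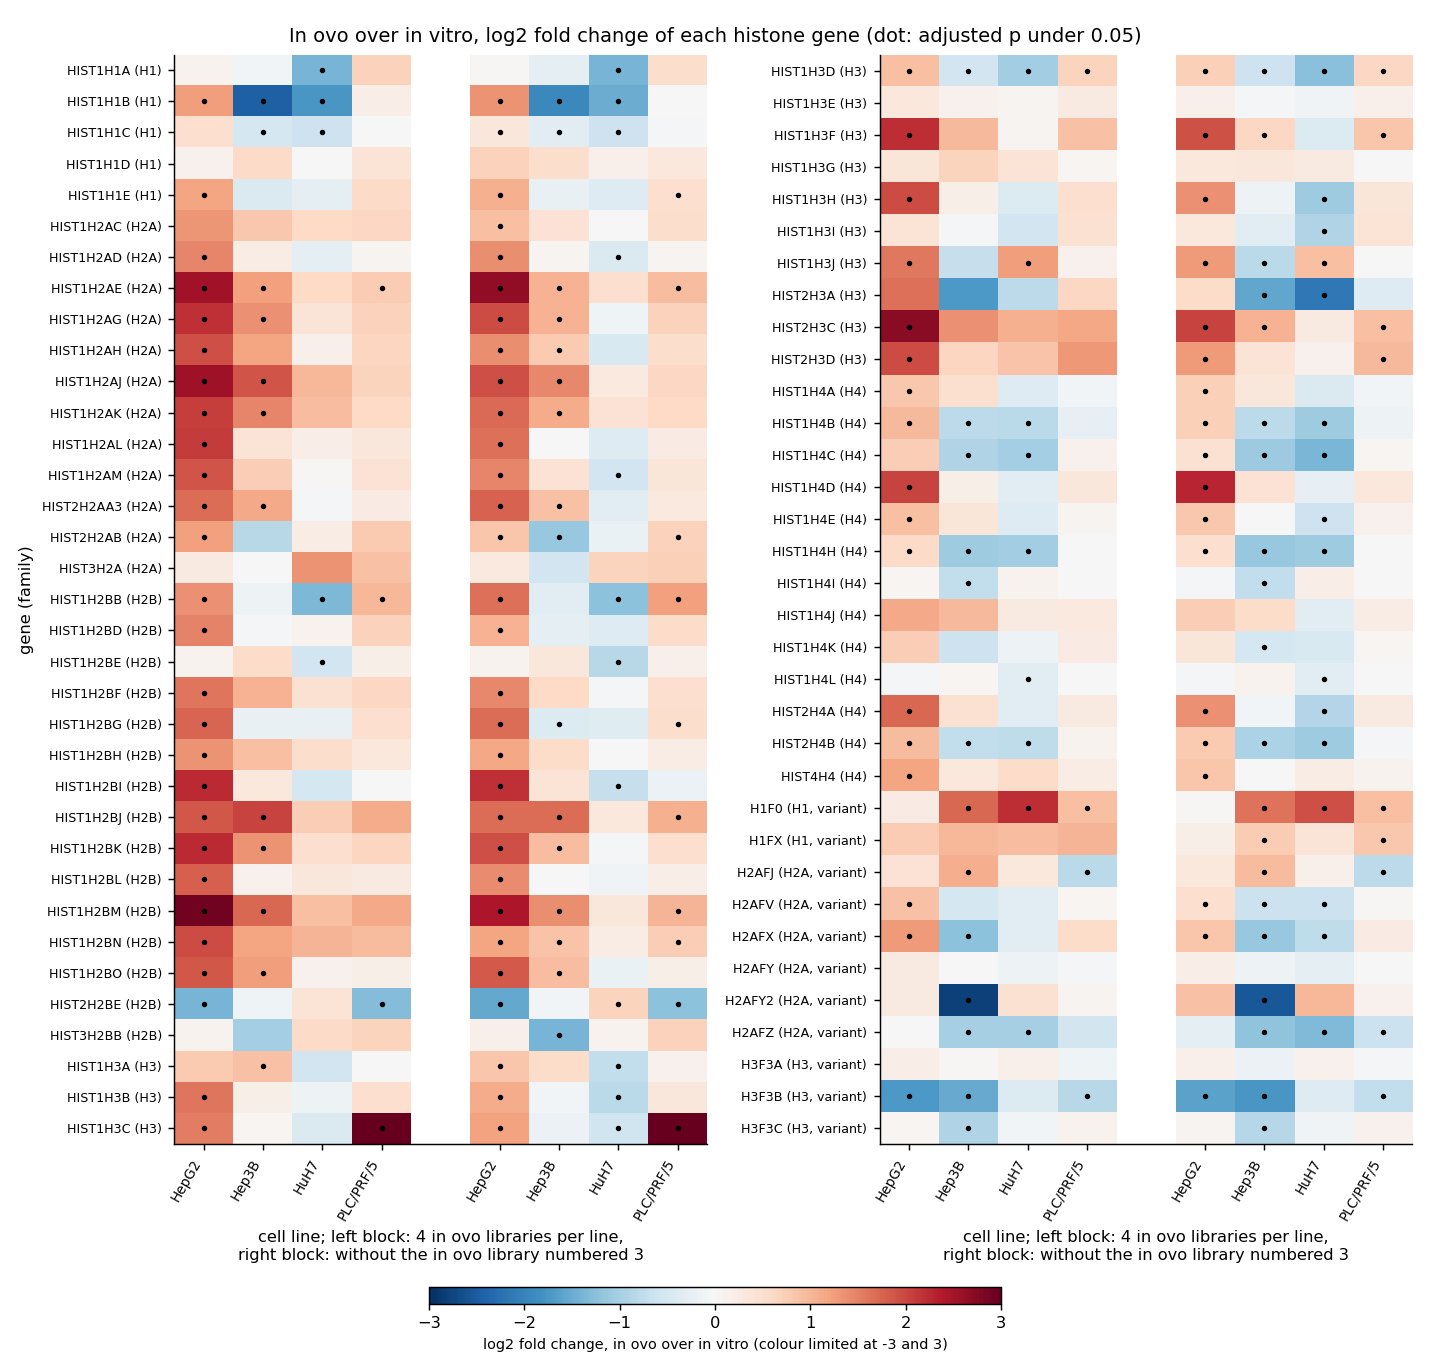
Log2 fold change, in ovo over in vitro, of the 58 replication-dependent and 11 variant genes that passed the filter, in each line with all tumours (left block) and without the 4 tumours numbered 3 (right block). A dot marks an adjusted p under 0.05. The HepG2 column is red for most replication-dependent genes, with 40 called higher, against 12.6% of all genes. HuH7 has 11 of 58 called lower, near the 19.5% of all genes called lower there.

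The difference between lines was tested directly, as the response of a line minus the mean response of the other 3. HepG2 responded more strongly in 22 of 58 replication-dependent genes and less in 1, against 7.1% and 13% of all genes. Hep3B responded more in 0 and less in 10, against 12.7% and 12.8% of all genes. HuH7 responded more in 1 and less in 14, against 11.8% and 7.66%. PLC/PRF/5 responded more in 4 and less in 1, against 9.18% and 7.91%. The 4 contrasts use the same libraries and are not independent.

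The cultures already differed. In HepG2 cultures 36 of 58 replication-dependent genes were lower than the mean of the other cultures and 4 higher, against 26.1% and 24.1% of all genes tested, with a median log2 difference of -1.12. In HuH7 cultures 5 were lower and 22 higher, against 20.7% and 23.5%, with a median of 0.70. Among PLC/PRF/5 cultures, 9 were lower and 19 higher, against 30.4% and 24.6%, and in Hep3B cultures 14 were lower and 13 higher, against 21.1% and 19.5%. These cultures also enter the in ovo comparisons as their baseline, so the culture level and the response of a line share libraries.

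By family, the median log2 fold change in HepG2 was highest in the core histones H2A and H2B, though differences between families were not tested. 10 of 12 H2A genes were called higher and 0 lower (median log2 fold change 1.91), and 12 of 15 H2B genes were called higher and 1 lower (median 1.75). 8 of 13 H3 genes (median 1.58), 8 of 13 H4 genes (median 0.91) and 2 of 5 H1 genes (median 0.51) were called higher, with none lower. In Hep3B 5 H2A and 4 H2B genes were called higher and none lower, while 0 H4 genes were called higher and 5 lower, but with totals alone the H2A and H2B counts became 0 higher and 2 lower, and 1 higher and 5 lower. In HuH7 the lower calls were 5 H4, 3 H1, 2 H2B and 1 H3 genes. No H4 gene was called in PLC/PRF/5. Over all genes, 12.6% were called higher and 12.4% lower in HepG2, and 25.3% and 26.7% in Hep3B. The shares were 23.9% and 19.5% in HuH7, and 11.7% and 5.62% in PLC/PRF/5. With totals alone the Hep3B shares were 9.2% and 52.1%.

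HIST1H2AJ, which encodes an H2A, read 3154, 3103, 19996 and 3612 CPM in HepG2 tumours, against 854, 890.2 and 889 CPM in cultures. In Hep3B it read 176, 543, 858 and 195 CPM in tumours, against 97.3, 100.4 and 89.0 CPM in cultures. No tumour of either line overlapped its cultures, and in both the third tumour was highest. The log2 fold change was 2.55 ± 0.64 in HepG2 (SE, limma adjusted p = 0.0041) and 1.89 ± 0.64 in Hep3B (adjusted p = 0.016). The Hep3B call was lost with totals alone, after removal of the GC and length trends, and without either the second or the third tumour. In HuH7 tumours it read 2388, 1575, 10856 and 906 CPM, against 1291, 1257 and 1166 CPM in cultures, with overlap and no call (adjusted p = 0.21).

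HIST1H2AE, an H2A gene whose amplicon runs from the coding sequence into the untranslated end and differs from its nearest relative at 27 positions, was the sole replication-dependent gene called higher in 3 lines with all libraries, and 1 of 6 such genes without the 4 libraries numbered 3. It read 391, 284, 219 and 248.6 CPM in HepG2 tumours, against 47.4, 47.3 and 48.4 CPM in cultures (log2 fold change 2.52 ± 0.25 SE, limma adjusted p = 3.4e-08). Here the third tumour was the lowest. It read 101, 243, 236 and 136 CPM in Hep3B tumours, against 72.0, 74.2 and 66.6 CPM in cultures (1.23 ± 0.25, limma adjusted p = 0.00031, not called with totals alone). Levels in PLC/PRF/5 were 110.2, 148, 78.4 and 129 CPM in tumours, against 66.9, 55.4 and 79.0 CPM in cultures, with the third tumour inside the range of the cultures (0.76 ± 0.25, limma adjusted p = 0.038, not called with totals alone or in 5 of 7 fits that left out 1 library). The HuH7 tumours read 114, 124, 144 and 98.9 CPM, against 77.4, 81.4 and 77.4 CPM in cultures, all above them, and the gene was not called (adjusted p = 0.061).

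Of the other H2A genes, HIST1H2AG read 16.8, 9.85, 26.5 and 10.2 CPM in HepG2 tumours, against 3.51, 1.47 and 2.54 CPM in cultures (log2 fold change 2.20 ± 0.46 SE, limma adjusted p = 0.00089). HIST1H2AK read 159, 158, 498 and 192 CPM in HepG2 tumours, against 47.9, 55.3 and 53.2 CPM in cultures (2.07 ± 0.47, limma adjusted p = 0.0016). Both separated fully in HepG2. HIST1H2AD read 124, 98.8, 135 and 93.8 CPM in HepG2 tumours, against 45.1, 36.1 and 39.5 CPM in cultures (1.46 ± 0.19, limma adjusted p = 2.6e-06), and its response in HepG2 exceeded that of the other lines by 1.45 ± 0.22.

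Among the H2B genes, HIST1H2BM had the highest fold change in HepG2. It read 132, 128, 539 and 136 CPM in HepG2 tumours, against 25.2, 24.0 and 23.8 CPM in cultures (log2 fold change 2.90 ± 0.55 SE, limma adjusted p = 0.00029). In Hep3B it read 5.08, 11.5, 15.6 and 2.58 CPM in tumours, against 1.04, 1.90 and 1.55 CPM in cultures (1.73 ± 0.55, limma adjusted p = 0.011). This call was lost with totals alone, after removal of the GC and length trends, and without the third tumour. HIST1H2BI read 11.7, 8.23, 13.7 and 12.4 CPM in HepG2 tumours, against 2.24, 1.59 and 1.103 CPM in cultures (2.24 ± 0.27, limma adjusted p = 8.9e-07). HIST1H2BI was not called in the other 3 lines, except lower in HuH7 without the 4 libraries numbered 3 (-0.69 ± 0.25, limma adjusted p = 0.025), and its response in HepG2 exceeded theirs by 2.30 ± 0.32.

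HIST1H2BG read 1023, 944, 1270.1 and 891 CPM in HepG2 tumours, against 304, 296 and 311 CPM in cultures (log2 fold change 1.75 ± 0.21 SE, limma adjusted p = 7.5e-07). In Hep3B it read 332, 558, 784 and 529.5 CPM in tumours, against 584, 653 and 600.0 CPM in cultures, with overlap. HIST1H2BJ, one of the genes known to give polyadenylated mRNA as well, read 23.8, 80.2, 125 and 54.1 CPM in Hep3B tumours, against 16.6, 14.2 and 11.6 CPM in cultures (2.03 ± 0.44, limma adjusted p = 0.00059). It was called with totals alone too, the sole one of the 10 replication-dependent genes called higher in Hep3B of which this held. In HepG2 it read 7.79, 7.42, 14.7 and 7.12 CPM in tumours, against 1.54, 2.45 and 1.21 CPM in cultures.

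HIST1H2BB was called in opposite directions, though its HepG2 and PLC/PRF/5 calls were lost after removal of the GC and length trends. It read 158, 98.9, 53.0 and 82.7 CPM in HepG2 tumours, against 36.6, 29.5 and 38.4 CPM in cultures (log2 fold change 1.37 ± 0.31 SE, limma adjusted p = 0.0016). It read 27.0, 34.5, 21.4 and 26.8 CPM in HuH7 tumours, against 76.1, 66.8 and 69.7 CPM in cultures (-1.35 ± 0.31, limma adjusted p = 0.0012). Every HepG2 tumour was above its cultures and every HuH7 tumour below, and the HuH7 response differed from that of the other lines by -2.09 ± 0.36. Its level was low in PLC/PRF/5, 1.51, 2.26, 0.906 and 3.03 CPM in tumours, against 0.582, 0.285 and 0.351 CPM in cultures (1.01 ± 0.31, limma adjusted p = 0.024, not called with totals alone or with a pseudocount of 5 CPM).

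HIST2H2BE, an H2B gene whose amplicon lies in an untranslated part of its transcript, was the sole replication-dependent gene called lower in HepG2 and in PLC/PRF/5. It read 1.35, 2.91, 3.67 and 2.01 CPM in HepG2 tumours, against 9.39, 7.47 and 6.84 CPM in cultures (log2 fold change -1.39 ± 0.25 SE, limma adjusted p = 0.00013). It read 7.64, 7.68, 5.66 and 7.03 CPM in PLC/PRF/5 tumours, against 19.0, 19.3 and 17.9 CPM in cultures (-1.31 ± 0.25, limma adjusted p = 0.00041). Neither line's tumours overlapped its cultures. Of the 7 replication-dependent genes known to be polyadenylated as well, HepG2 had 4 called higher and 1 lower, Hep3B 2 and 2, HuH7 0 and 2, and PLC/PRF/5 0 and 1. The shares of all genes were, in the same order, 12.6% and 12.4%, 25.3% and 26.7%, 23.9% and 19.5%, and 11.7% and 5.62%.

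Among the H3 genes, HIST1H3D read 478, 441, 801 and 447 CPM in HepG2 tumours, against 289, 261 and 289 CPM in cultures (log2 fold change 0.91 ± 0.21 SE, limma adjusted p = 0.0018). It read 170.1, 166, 305 and 152 CPM in HuH7 tumours, against 402, 394 and 382 CPM in cultures (-1.04 ± 0.21, limma adjusted p = 0.00032), and 215, 269, 269 and 237 CPM in Hep3B tumours, against 363, 382 and 354 CPM in cultures (-0.57 ± 0.21, limma adjusted p = 0.024, not called in 3 of 7 fits that left out 1 library). Levels in PLC/PRF/5 were 399, 413, 473 and 478 CPM in tumours, against 302, 234 and 306 CPM in cultures (0.66 ± 0.21, limma adjusted p = 0.029, not called in 5 of 7 fits that left out 1 library). In each of the 4 lines tumours and cultures did not overlap, with HepG2 and PLC/PRF/5 higher and Hep3B and HuH7 lower. Its amplicon also matched a second annotated gene, AL031777.3, over its whole length.

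HIST1H3C read 1259.6, 1026, 2956 and 1055 CPM in HepG2 tumours, against 487, 492 and 490.0 CPM in cultures (log2 fold change 1.53 ± 0.31 SE, limma adjusted p = 0.00055). The PLC/PRF/5 libraries read 8.75, 7.02, 8.83 and 16.2 CPM in tumours, against 0, 0.0951 and 0.117 CPM in cultures, which are at or under 1 read each. The fitted log2 fold change there was 3.33 ± 0.31 (limma adjusted p = 1.6e-08), a value that depends on the added pseudocount and sets no bound. Unscaled, the PLC/PRF/5 tumours read 0.776%, 0.782%, 0.740% and 1.37% of the mean HepG2 tumour level of HIST1H3C. For the 8 other genes at 0.2 CPM or less in PLC/PRF/5 cultures and over 300 CPM in every HepG2 tumour, the median was 1.02%, 0.961%, 0.982% and 1.72% in the same 4 libraries. The 10 hepatocyte markers summed to 778.5 to 2054 CPM in PLC/PRF/5 tumours and 22.4 to 29.2 CPM in cultures. The part of RNA or reads from another line in the HIST1H3C values was not tested.

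Of 13 H4 genes, 5 were called lower in Hep3B and 5 in HuH7, against 26.7% and 19.5% of all genes. HIST1H4H, among the genes that also give polyadenylated mRNA, read 9.004, 8.72, 12.1 and 15.7 CPM in Hep3B tumours, against 23.6, 25.1 and 24.7 CPM in cultures (log2 fold change -1.08 ± 0.17 SE, limma adjusted p = 1.3e-05). It read 17.7, 23.9, 24.4 and 23.9 CPM in HuH7 tumours, against 47.2, 47.3 and 46.1 CPM in cultures (-1.04 ± 0.17, limma adjusted p = 2.9e-05). In HepG2 it read 30.4, 30.7, 35.5 and 23.2 CPM in tumours, against 19.9, 19.8 and 19.0 CPM in cultures (0.57 ± 0.17, limma adjusted p = 0.013, not called with totals alone). The PLC/PRF/5 values overlapped, 80.0 to 91.7 CPM in tumours and 82.8 to 85.1 CPM in cultures.

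HIST1H4C read 424, 503, 763 and 474 CPM in Hep3B tumours, against 969, 987 and 983 CPM in cultures (log2 fold change -0.89 ± 0.31 SE, limma adjusted p = 0.021, not called in 3 of 7 fits that left out 1 library). It read 335, 308, 831 and 254 CPM in HuH7 tumours, against 791, 761 and 782 CPM in cultures (-1.01 ± 0.31, limma adjusted p = 0.012). The third HuH7 tumour was above the cultures and the other 3 below them. HIST1H4B read 69.5, 97.9, 86.8 and 99.6 CPM in Hep3B tumours, against 141, 152 and 161 CPM in cultures (-0.78 ± 0.26, limma adjusted p = 0.015). In HuH7 it read 72.5, 92.8, 179 and 82.9 CPM in tumours, against 168, 176 and 181 CPM in cultures, with the third tumour among the cultures (-0.80 ± 0.26, limma adjusted p = 0.016). Both lower calls were lost after removal of the GC and length trends. In HepG2 HIST1H4B read 165, 137, 326 and 138 CPM in tumours, against 94.2, 88.3 and 88.1 CPM in cultures (0.98 ± 0.26, limma adjusted p = 0.0067). HIST2H4B was also called in both directions, at levels of 0.561 to 3.87 CPM throughout, and both of its lower calls, in Hep3B and HuH7, were lost with edgeR's quasi-likelihood test.

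Of the 5 linker histone genes, 3 were called lower in HuH7 and 2 in Hep3B, against 19.5% and 26.7% of all genes. HIST1H1B, encoding H1.5, read 275, 86.9, 34.1 and 143 CPM in Hep3B tumours, against 595, 554 and 563 CPM in cultures (log2 fold change -2.44 ± 0.41 SE, limma adjusted p = 3.7e-05). It read 91.5, 86.1, 54.4 and 161 CPM in HuH7 tumours, against 301, 302 and 325 CPM in cultures (-1.75 ± 0.41, limma adjusted p = 0.0016). In HepG2 it read 115, 84.1, 80.4 and 91.2 CPM in tumours, against 42.5, 38.6 and 33.0 CPM in cultures (1.26 ± 0.41, limma adjusted p = 0.027, not called with totals alone, after removal of the GC and length trends, or in 4 of 7 fits that left out 1 library). None of these 3 comparisons overlapped, and in all 3 lines the third tumour was the lowest, unlike most core histone genes. In PLC/PRF/5 the third tumour was the highest, with 277, 213, 427 and 285 CPM in tumours, against 246, 282 and 238 CPM in cultures. HIST1H1A, encoding H1.1, read 657, 572, 607 and 544 CPM in HuH7 tumours, against 1561, 1617 and 1521 CPM in cultures (-1.40 ± 0.28, limma adjusted p = 0.00035). HIST1H1C, encoding H1.2, was called lower in Hep3B (-0.52 ± 0.19, limma adjusted p = 0.028) and HuH7 (-0.61 ± 0.19, limma adjusted p = 0.013). HIST1H1E, encoding H1.4, was called higher in HepG2 (1.18 ± 0.23, limma adjusted p = 0.00032, not called after removal of the GC and length trends).

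Over the lines, 28 replication-dependent genes were called higher in 1 line, 12 in 2 and 1 in 3, and none in all 4. 5 were called lower in 1 line and 8 in 2. Without the 4 libraries numbered 3, 24 were called higher in 1 line, 15 in 2, 6 in 3 and none in all 4, and 20 were called lower in 1 line and 9 in 2. 6 were called in opposite directions in different lines (HIST1H1B, HIST1H2BB, HIST1H3D, HIST1H4B, HIST1H4H and HIST2H4B), and 21 were without the 4 libraries numbered 3. The same overlaps were not counted over all genes. In a single line, 11.7% to 25.3% of all genes were called higher and 5.62% to 26.7% lower. Without the 4 libraries numbered 3, these shares were 17.5% to 29.3% and 11.2% to 30.5%.

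The 11 variant genes did not move as a block. HepG2 had 2 called higher and 1 lower, against 12.6% and 12.4% of all genes. Hep3B had 2 and 5, against 25.3% and 26.7%, HuH7 1 and 1, against 23.9% and 19.5%, and PLC/PRF/5 1 and 2, against 11.7% and 5.62%. The median log2 fold change was 0.26, -0.53, -0.08 and 0.06. The counts without the 4 libraries numbered 3 were 2 and 1, 3 and 6, 1 and 3, and 2 and 3. Shares of all genes in that fit were, in the same order, 17.5% and 16.2%, 29.3% and 30.5%, 27.9% and 22.2%, and 18% and 11.2%. Whether the variants responded differently from the replication-dependent genes was not tested as a set. Their summed level was 1070.0, 1129, 2612 and 1199 CPM in HepG2 tumours, against 1076, 1097 and 1107 CPM in cultures, so the third tumour lay far above the cultures and the other 3 close to them.

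H1F0, encoding the linker histone H1.0 known to build up in resting and differentiated cells, was called higher in 3 lines. It read 328, 480.2, 499.9 and 349 CPM in Hep3B tumours, against 125, 128 and 114 CPM in cultures (log2 fold change 1.73 ± 0.26 SE, limma adjusted p = 9.2e-06). It read 499, 355, 859.8 and 296 CPM in HuH7 tumours, against 101, 98.6 and 94.8 CPM in cultures (2.22 ± 0.26, limma adjusted p = 3.8e-07). The PLC/PRF/5 libraries read 27.7, 38.8, 34.3 and 30.2 CPM in tumours, against 17.4, 16.2 and 16.8 CPM in cultures (0.91 ± 0.26, limma adjusted p = 0.016, not called with RLE size factors). The tumours of these 3 lines lay above all their cultures. HepG2 gave 449, 471, 919 and 545 CPM in tumours, against 479.9, 486 and 477 CPM in cultures, with overlap and no call. The other variant linker histone, H1FX, read 34.2, 38.3, 221 and 44.3 CPM in HepG2 tumours, against 34.5, 34.9 and 35.1 CPM in cultures. It was called in no single line and in the mean over lines (0.93 ± 0.26, limma adjusted p = 0.0032).

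H3F3B, encoding the replacement histone H3.3, was called lower in 3 lines. It read 6.75, 12.4, 7.34 and 13.5 CPM in HepG2 tumours, against 31.7, 36.0 and 34.5 CPM in cultures (log2 fold change -1.73 ± 0.27 SE, limma adjusted p = 2.5e-05). It read 3.18, 7.69, 9.94 and 5.39 CPM in Hep3B tumours, against 19.8, 18.3 and 19.7 CPM in cultures (-1.51 ± 0.27, limma adjusted p = 6.3e-05), and 7.64, 13.5, 7.81 and 10.498 CPM in PLC/PRF/5 tumours, against 18.7, 15.9 and 18.8 CPM in cultures (-0.82 ± 0.27, limma adjusted p = 0.035, not called in 6 of 7 fits that left out 1 library). All tumours of these lines lay below their cultures. Its amplicon lies in an untranslated part of the transcript. H3F3A, which encodes the same protein and is read across an exon junction, was not called in any line (log2 fold change -0.12 to 0.19), although its amplicon also matched pseudogenes. H3F3C read 10.1, 7.44, 6.99 and 8.91 CPM in Hep3B tumours, against 17.4, 16.5 and 15.1 CPM in cultures (-0.90 ± 0.19, limma adjusted p = 0.00044), and was called in no other line.

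H2AFZ, encoding H2A.Z.1, read 188, 237, 376 and 233 CPM in Hep3B tumours, against 469.8, 529 and 499 CPM in cultures (log2 fold change -0.99 ± 0.32 SE, limma adjusted p = 0.013). In HuH7 it read 344, 263, 664 and 190.2 CPM in tumours, against 664, 646 and 643 CPM in cultures (-0.99 ± 0.32, limma adjusted p = 0.016). The third HuH7 tumour was level with the cultures and the other 3 were below them. In HepG2 the log2 fold change of H2AFZ was 0.00, with 226, 219, 532 and 204 CPM in tumours, against 273, 261 and 278 CPM in cultures. H2AFV, encoding H2A.Z.2, read 129, 152, 421 and 149.5 CPM in HepG2 tumours, against 92.3, 107 and 108 CPM in cultures (0.87 ± 0.31, limma adjusted p = 0.043, not called in 4 of 7 fits that left out 1 library, among them the fit without the third tumour).

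H2AFX, encoding the H2A.X that is phosphorylated at DNA breaks and the sole variant in which the stem-loop was found, read 84.5, 96.7, 358 and 125 CPM in HepG2 tumours, against 47.2, 63.5 and 60.8 CPM in cultures (log2 fold change 1.27 ± 0.47 SE, limma adjusted p = 0.049, not called with totals alone or without the third tumour). It read 73.4, 41.5, 30.4 and 20.4 CPM in Hep3B tumours, against 84.9, 95.3 and 84.1 CPM in cultures (-1.22 ± 0.47, limma adjusted p = 0.033, not called without the third tumour or by edgeR's quasi-likelihood test). It was thus higher in all HepG2 tumours and lower in all Hep3B tumours than in the cultures of the line. H2AFJ read 30.3, 45.1, 51.1 and 30.2 CPM in Hep3B tumours, against 18.4, 17.9 and 15.8 CPM in cultures (1.095 ± 0.20, limma adjusted p = 0.0001, not called with totals alone). It went the other way in PLC/PRF/5, with 27.6, 31.3, 27.5 and 30.6 CPM in tumours, against 56.8, 43.7 and 56.4 CPM in cultures (-0.81 ± 0.20, limma adjusted p = 0.0062).

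Of the macroH2A genes, H2AFY was not called in any line, with log2 fold changes of -0.15 to 0.28. H2AFY2 read 3.92, 0.513, 0.269 and 2.11 CPM in Hep3B tumours, against 14.5, 15.8 and 15.4 CPM in cultures (log2 fold change -2.80 ± 0.58 SE, limma adjusted p = 0.00035). In PLC/PRF/5 it was at or under the floor of 3 reads in all 7 libraries. In HepG2 its level in tumours was 14.8, 12.1, 1.43 and 8.98 CPM, against 8.27, 5.51 and 4.74 CPM in cultures, with the third tumour below the cultures and the others above.

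**Figure D4:**
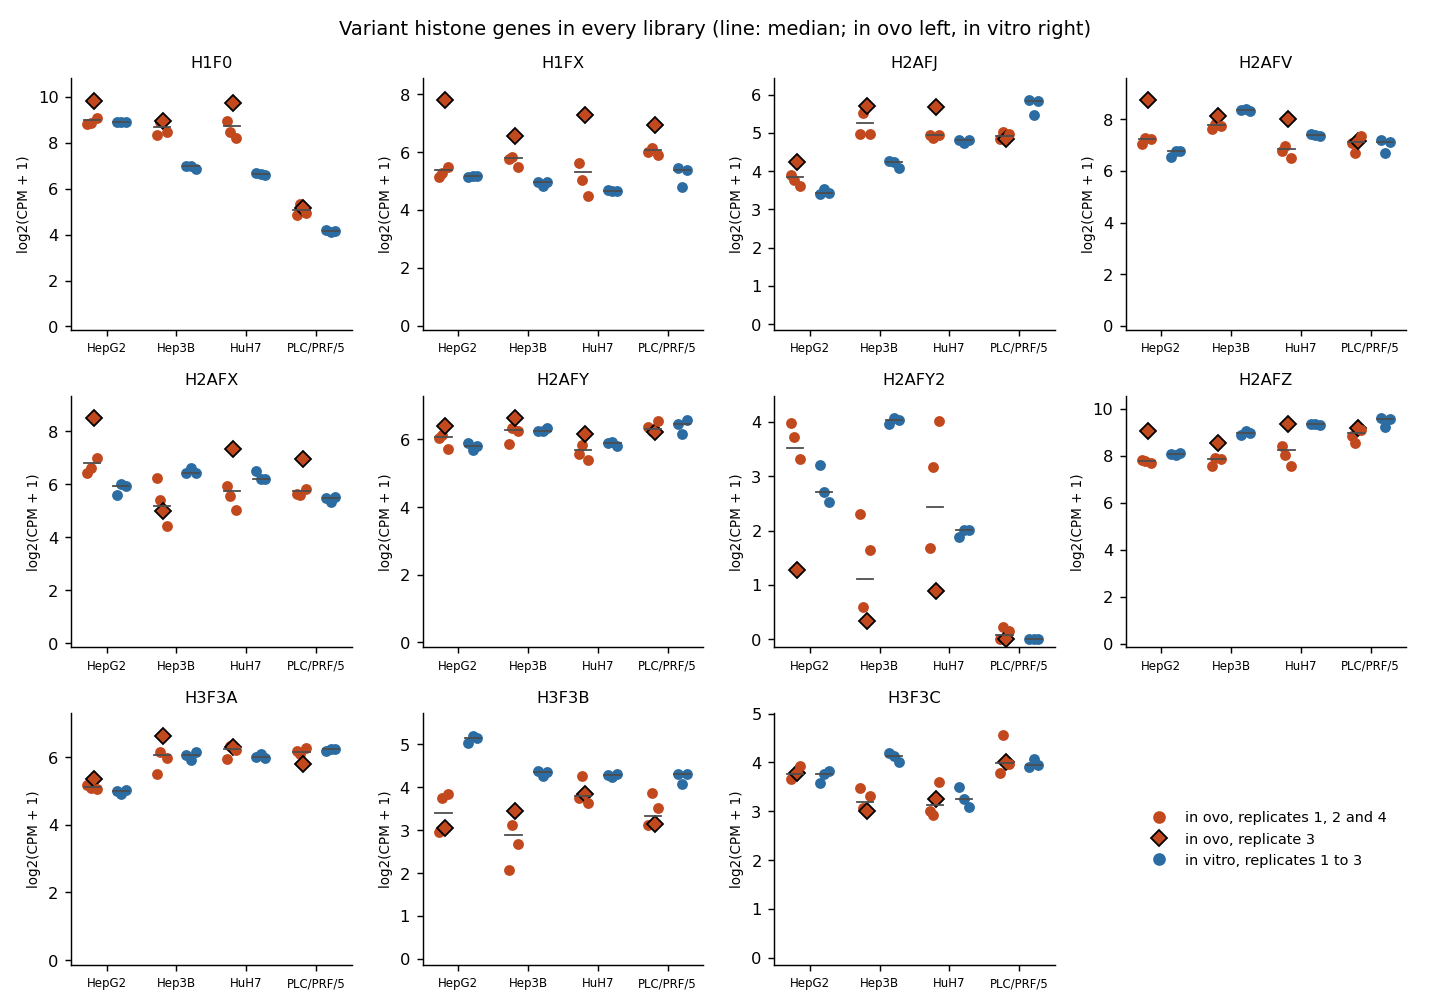
Level of each of the 11 variant genes in every library, as log2(CPM + 1) with TMM-scaled CPM, in ovo left and in vitro right within each line, with a bar at the group median. H1F0 lies higher in the tumours of Hep3B, HuH7 and PLC/PRF/5, with no overlap, and H3F3B lies lower in the tumours of HepG2, Hep3B and PLC/PRF/5.

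Some histone genes were read in the cultures of some lines and hardly at all in others. The same was not counted over all 18961 genes, so the counts that follow do not set histone genes apart. At or under 3 reads in every culture were 17 of 80 members for PLC/PRF/5, 8 for HuH7, 13 for Hep3B and 18 for HepG2. 11 members were at or under 3 reads in all cultures of at least 1 line and at 10 CPM or more in all cultures of another. Chosen after their values were seen, they were H2AFY2, HIST1H1D, HIST1H2BE, HIST1H3A, HIST1H3C, HIST1H3E, HIST1H3G, HIST1H3I, HIST1H4I, HIST3H2A and HIST3H2BB, and 10 of them are replication-dependent. HIST1H3G read 76.6, 66.7, 99.1 and 91.4 CPM in PLC/PRF/5 tumours, against 85.7, 60.8 and 93.5 CPM in cultures, and at most 2.42 CPM in any tumour and 0.4999 CPM in any culture of the other lines. HIST1H4I read 48.0 to 51.8 CPM in Hep3B tumours, against 79.7 to 87.9 CPM in cultures, and 76.1 to 98.8 CPM in PLC/PRF/5 tumours, against 73.9 to 103 CPM in cultures. In HepG2 and HuH7 it stayed at or under 0.408 CPM in every library. HIST1H2BE was read in HuH7 alone, with 15.4, 16.1, 31.2 and 12.7 CPM in tumours, against 29.8, 26.4 and 25.3 CPM in cultures, and reached at most 1.34 CPM in a library of the other lines.

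**Figure D5:**
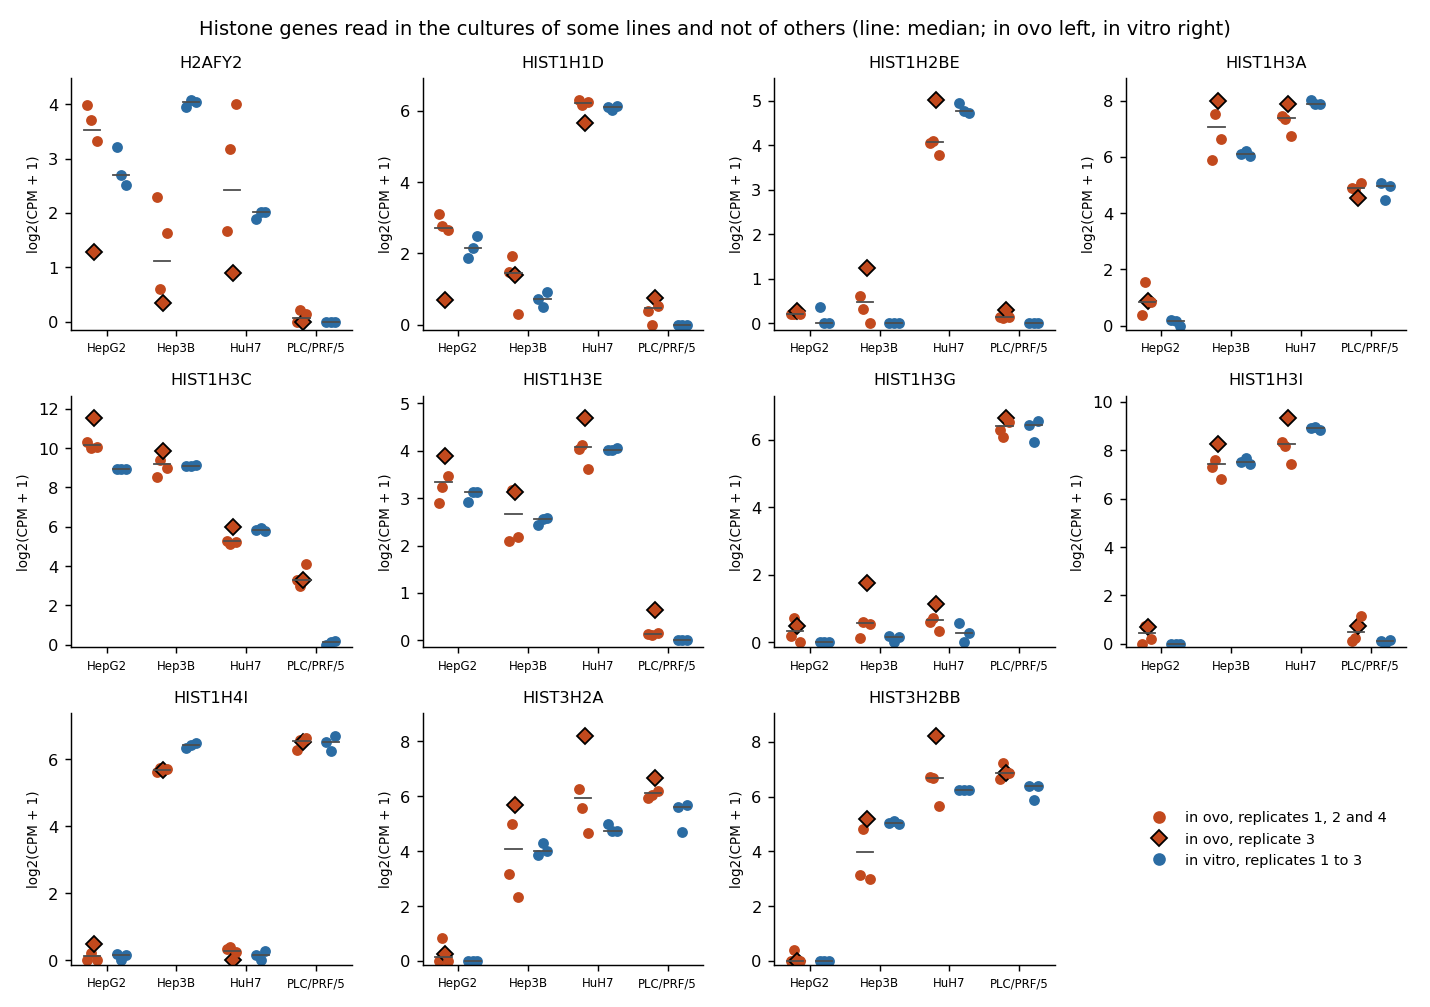
Level, as log2(CPM + 1), of the 11 histone genes that were at or under 3 reads in all cultures of some line and at 10 CPM or more in all cultures of another, in every library, in ovo left and in vitro right. Apart from HIST1H3C in PLC/PRF/5, the genes at or under 3 reads in the cultures of a line stayed under 3 CPM in its tumours.

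HIST3H2A and HIST3H2BB, an H2A and an H2B gene transcribed away from each other on chromosome 1, were unread together. In HepG2 tumours HIST3H2A read 0, 0.807, 0.204 and 0 CPM and HIST3H2BB 0, 0.323, 0 and 0 CPM, and both were 0 in all 3 HepG2 cultures. In PLC/PRF/5 HIST3H2BB read 98.4, 149, 115 and 114 CPM in tumours, against 81.9, 58.3 and 82.2 CPM in cultures, and HIST3H2A 60.3, 64.4, 99.3 and 72.4 CPM in tumours, against 47.5, 25.2 and 50.8 CPM in cultures. Neither was called in any line. 8 such divergent H2A and H2B pairs were placed, with 481 to 849 bases between their amplicons. In the 6 replication-dependent pairs of chromosome 6, both genes were called higher in HepG2 in all 6. Most H2A and H2B genes were called higher there, against 12.6% of all genes, so this count does not set the pairs apart. The promoter of HIST3H2BB, unread in HepG2, and that of HIST1H2BG, called higher there, are shown as the 250 bases before the RefSeq start (GRCh38.p14), at chr1:228457853-228458102, plus strand, and chr6:26216689-26216938, minus strand. Capitals mark CCAAT, the octamer ATTTGCAT and TATAAA, searched on both strands without overlap between these motifs.
HIST3H2BB: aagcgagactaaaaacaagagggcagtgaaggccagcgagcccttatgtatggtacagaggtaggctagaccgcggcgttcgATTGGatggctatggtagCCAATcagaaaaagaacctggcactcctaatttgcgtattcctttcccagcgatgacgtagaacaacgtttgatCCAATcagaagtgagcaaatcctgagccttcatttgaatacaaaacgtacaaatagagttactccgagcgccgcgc
HIST1H2BG: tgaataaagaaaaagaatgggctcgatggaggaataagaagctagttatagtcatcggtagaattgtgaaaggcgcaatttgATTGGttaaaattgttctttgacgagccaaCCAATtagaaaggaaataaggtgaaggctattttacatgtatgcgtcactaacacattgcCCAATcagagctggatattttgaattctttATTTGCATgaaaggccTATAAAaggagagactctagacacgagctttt

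Both promoters held CCAAT 3 times. HIST1H2BG also held the octamer and TATAAA once each, and HIST3H2BB held neither in this window. A promoter was found for 73 of the 80 members. CCAAT was present in 82.5% of 57 replication-dependent promoters, against 33.0% of 27305 promoters of the same length. It was in all 12 H2A, 16 H2B, 11 H3 and 5 H1 promoters but in 3 of 13 H4 promoters. TATAAA was in 63.2% of the replication-dependent promoters, against 11.1% of all, and the octamer in 38.6%, against 1.66% of all. The octamer was in 9 of 12 H2A and 12 of 16 H2B promoters, in 1 of 11 H3, and in none of the H1 and H4 promoters. Divergent pairs can share a window, so their promoters are not independent. These matches describe the sequence alone.

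Germ-line histone genes were close to unread, with 1 exception. HIST1H2AA and HIST1H2BA, a divergent pair known from testis, were read in HuH7. HIST1H2AA read 1.03, 2.47, 0.172 and 2.30 CPM in HuH7 tumours, against 10.498, 11.4 and 7.51 CPM in cultures (log2 fold change -2.22 ± 0.23 SE, limma adjusted p = 5.3e-08). HIST1H2BA read 0.771, 0.429, 0.172 and 0.766 CPM in HuH7 tumours, against 6.999, 6.30 and 6.21 CPM in cultures (-2.31 ± 0.13, limma adjusted p = 8.2e-13). No tumour overlapped a culture, and in the other lines both genes stayed at or under 0.325 CPM. HIST1H1T, the testis linker histone, was read at 0.20 to 2.96 CPM throughout, was called lower in HepG2 (-0.95) and higher in Hep3B (0.74) and HuH7 (0.73), and lost the Hep3B call with totals alone and without the 4 libraries numbered 3.

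Genes that act on histones were taken from lists chosen with earlier results of these data known. The shares of all genes called higher and lower, against which the list counts stand, were 12.6% and 12.4% for HepG2, 25.3% and 26.7% for Hep3B, 23.9% and 19.5% for HuH7, and 11.7% and 5.62% for PLC/PRF/5. Of 20 S phase genes, HepG2 had 13 called higher and none lower (median log2 fold change 0.96), Hep3B 3 and 9 (-0.37), HuH7 none and 11 (-0.68), and PLC/PRF/5 1 and 2 (-0.02). With totals alone the Hep3B count was none higher and 17 lower, against 9.2% and 52.1% of all genes. Without the 4 libraries numbered 3 HepG2 had 14 and 0, Hep3B 3 and 8, HuH7 0 and 13, and PLC/PRF/5 1 and 5. Shares of all genes in that fit were, in the same order, 17.5% and 16.2%, 29.3% and 30.5%, 27.9% and 22.2%, and 18% and 11.2%. The replication helicase gene MCM2 averaged 888 ± 489 CPM in HepG2 tumours (SD, n = 4) and 266 ± 7.77 CPM in cultures (SD, n = 3), and was called higher there (1.60 ± 0.35, limma adjusted p = 0.0012). The thymidine kinase gene TK1 averaged 91.5 ± 13.6 CPM in Hep3B tumours and 318 ± 6.78 CPM in cultures (-1.80 ± 0.15, limma adjusted p = 1.6e-09). In HuH7 it averaged 109 ± 23.9 CPM in tumours and 228 ± 6.90 CPM in cultures (-1.096 ± 0.15, limma adjusted p = 4.7e-06). The subunit gene of the DNA polymerase that primes replication, POLA1, averaged 81.1 ± 18.7 CPM in HepG2 tumours and 30.6 ± 3.47 CPM in cultures (1.36 ± 0.15, limma adjusted p = 1.1e-07). A fall in the share of dividing cells and a lower level in each cell cannot be told apart in these bulk libraries.

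Of 13 genes of histone mRNA transcription and 3′ end processing that passed the filter, HepG2 had 2 called higher and none lower, Hep3B 3 and 3, HuH7 3 and 3, and PLC/PRF/5 2 and none. The Hep3B and HuH7 counts lie near the shares of 25.3% and 26.7%, and of 23.9% and 19.5%, of all genes. SLBP, which binds the stem-loop, averaged 2.72 ± 1.01 CPM in Hep3B tumours and 10.4 ± 1.27 CPM in cultures (log2 fold change -1.65 ± 0.40 SE, limma adjusted p = 0.0015). In HuH7 it averaged 3.02 ± 2.56 CPM in tumours and 8.15 ± 0.704 CPM in cultures (-1.46 ± 0.40, limma adjusted p = 0.0052). In HepG2 SLBP averaged 2.74 ± 1.30 CPM in tumours and 4.58 ± 0.349 CPM in cultures, with overlap and no call. NPAT, which switches on histone gene transcription, read close to the floor, at means of 0.265 to 1.79 CPM in tumours and 1.20 to 2.28 CPM in cultures. It was called lower in Hep3B, but changed sign there to 0.6488 after removal of the GC and length trends. POU2F1, whose product binds the octamer of H2B promoters, was called higher in all 4 lines (0.94 to 1.13), though not in Hep3B with totals alone.

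Of 21 histone chaperone and deposition genes that passed the filter, HepG2 had 6 called higher and none lower, Hep3B 6 and 11, HuH7 5 and 9, and PLC/PRF/5 4 and none. The higher counts in Hep3B and HuH7 lie near the 25.3% and 23.9% of all genes called higher there. CHAF1A, a subunit of the CAF-1 complex that loads new H3 and H4 behind the replication fork, averaged 98.6 ± 21.5 CPM in HepG2 tumours and 39.5 ± 3.19 CPM in cultures (log2 fold change 1.28 ± 0.23 SE, limma adjusted p = 0.00016). ASF1B, which hands H3 and H4 to CAF-1, averaged 24.7 ± 5.73 CPM in HepG2 tumours and 12.8 ± 1.51 CPM in cultures (0.88 ± 0.20, limma adjusted p = 0.0022). It averaged 39.4 ± 9.23 CPM in HuH7 tumours and 64.8 ± 2.353 CPM in cultures (-0.73 ± 0.20, limma adjusted p = 0.0063). The genes acting on variant histones included EP400, a remodeller that places H2A.Z, which was called higher in all 4 lines (1.04 to 2.02). DAXX and HIRA, which deposit H3.3, were called higher in HepG2 (0.96 ± 0.17, limma adjusted p = 0.00017, and 0.79 ± 0.15, limma adjusted p = 0.0004). In Hep3B both were called higher with TMM scaling (1.31 ± 0.17 and 0.87 ± 0.15), and with totals alone neither was called and HIRA changed sign (-0.136).

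Markers of other cell types were read beside these changes. The 6 fibroblast markers summed to 279 to 528 CPM in Hep3B tumours and 99.0 to 103 CPM in cultures, and to 519.6 to 841 CPM in HuH7 tumours and 155 to 166 CPM in cultures. In HepG2 they summed to 4.20 to 4.80 CPM in tumours and 18.5 to 21.8 CPM in cultures, with 3 of the 6 at 0 in all. The PLC/PRF/5 sums were 15.9 to 24.3 CPM in tumours and 12.6 to 14.0 CPM in cultures. The 5 leukocyte markers summed to 9.38 to 65.4 CPM in HepG2 tumours and 382 to 399 CPM in cultures. The 5 endothelial markers summed to 48.7 to 60.6 CPM in HepG2 tumours and 8.49 to 10.8 CPM in cultures, with KDR at 0 in all. They summed to 7.79 to 10.8 CPM in Hep3B tumours and 1.33 to 1.76 CPM in cultures. HuH7 went the other way, with 5.62 to 20.8 CPM in tumours and 21.1 to 23.1 CPM in cultures. In PLC/PRF/5 the sums were 2.17 to 6.46 CPM in tumours and 0.234 to 0.856 CPM in cultures. At most 2 markers of any of these lists were at 10 CPM or more in every library of a group, so each sum rests on few genes. The part of other cell types in the histone values was not tested.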

How the data were processed

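The deposited signal is reads per amplicon of a targeted human panel (DriverMap Targeted Expression Profiling, from 500 ng of total RNA, per the labels' protocols), scaled so that every library sums to 500000. The submitters' processing notes name the hg38 build. Which aligner and counter were used is not given in the sources used here. Whole reads were recovered: at least 99.97% of values in each library came out within 0.01 of a read. 1 damaged value (KRT18 in a PLC/PRF/5 tumour) was filled and concerns no histone gene.

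Values were scaled to CPM by TMM (edgeR 4.0.16). limma 3.58.1 (R 4.3.3) was fitted with a mean-variance trend to log2(CPM + 1) in 1 model of 8 groups with 20 residual degrees of freedom, so fold changes are on that scale and understate the change of low genes. The low-value filter was filterByExpr with a minimum of 10 reads, which 13100 of 18961 genes passed and 5861 did not. The p-values are two-sided and were adjusted by Benjamini-Hochberg over all genes tested. Errors beside fold changes are standard errors. The fit was tested on simulated data. Tables and figures used Python 3.11.15. Amplicons were placed on GENCODE 29 transcripts (GRCh38), and promoters came from RefSeq (GRCh38.p14). Floors of 3 reads cover counting error only.

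Named genes were every variant histone, the 4 highest and 4 lowest called replication-dependent genes per line averaging at least 10 CPM, genes called in opposite directions, up to 4 genes per test between lines with the smallest adjusted p, up to 3 per line from each list of other genes, and NPAT, SLBP, ASF1B, CHAF1A and MCM2. The members and lists were chosen with earlier results of these data known. Alternatives were other scalings, filters, pseudocounts, edgeR's quasi-likelihood test, each line alone, a replicate block, removal of GC and length trends, and leaving out libraries.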

Additional observations from a re-analysis of the deposited data

Results flagged for a closer look

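In groups of 4 tumours, a library was singled out where its gap to the nearest other, divided by the range of the group, passed Dixon's 95% critical value. 201 groups were checked, chance gives about 5% of independent groups, and 30 passed, 28 of them through the tumour numbered 3. The groups are genes and sums read in the same tumours, and so are not independent. The gap ratio of the summed replication-dependent genes was 0.968 in HepG2 and 0.834 in HuH7. It was 0.916 for the summed variants and 0.867 for the summed S phase genes in HepG2.

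Among variants in HepG2 the ratio was 0.946 for H1FX, 0.923 for H2AFV, 0.853 for H2AFX and 0.932 for H2AFZ. It was 0.916 for H2AFJ in HuH7 and 0.887 for H2AFX in PLC/PRF/5. Among replication-dependent genes in HepG2 it was 0.970 for HIST1H2AJ, 0.901 for HIST1H2AK, 0.911 for HIST1H2BJ, 0.980 for HIST1H2BM, 0.879 for HIST1H3C, 0.898 for HIST1H3D, 0.854 for HIST1H4B and 0.960 for HIST2H3C. In HuH7 it was 0.838 for HIST1H2AG, 0.851 for HIST1H2AJ, 0.858 for HIST1H3C, 0.881 for HIST1H3D, 0.860 for HIST1H4C and 0.933 for HIST2H3C, and in PLC/PRF/5 it was 0.915 for HIST2H3C. Among other genes it was 0.882 for DAXX and 0.884 for MCM2 in HepG2 and 0.838 for DAXX in HuH7. The 2 exceptions were HIST1H4H in HuH7 (0.932), where tumour 1 stood apart, and SYMPK in PLC/PRF/5 (0.868), where tumour 2 did.

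Some responses differed between a line and the mean of the other 3 in the limma test of that difference. The log2 difference in HepG2 was 2.30 for HIST1H2BI (adjusted p = 6.3e-06), 1.72 for HIST1H2BG (adjusted p = 9.7e-06), 1.28 for HIST1H4H (adjusted p = 2.4e-05) and 1.45 for HIST1H2AD (adjusted p = 2.6e-05). In Hep3B it was 1.11 for H2AFJ (adjusted p = 0.00087), -0.925 for HIST1H4H (adjusted p = 0.00085), -2.34 for HIST1H1B (adjusted p = 0.00066) and 0.851 for HIST1H2BA (adjusted p = 9.6e-05). In HuH7 it was -2.24 for HIST1H2BA (adjusted p = 2.6e-11), -2.09 for HIST1H2BB (adjusted p = 9.0e-05), -2.33 for HIST1H2AA (adjusted p = 3.3e-07) and -2.06 for HIST1H3C (adjusted p = 0.00011). In PLC/PRF/5 it was -1.42 for H2AFJ (adjusted p = 9.0e-05), 0.892 for HIST1H3D (adjusted p = 0.010), 0.990 for HIST1H2AA (adjusted p = 0.011) and 2.94 for HIST1H3C (adjusted p = 1.5e-06). HIST1H2AA and HIST1H2BA were at or under 0.325 CPM outside HuH7, so their differences in Hep3B and PLC/PRF/5 come from the HuH7 libraries in the mean. For HIST1H3C, the mean set against HuH7 holds the rises of HepG2 and PLC/PRF/5. The PLC/PRF/5 rise depends on the pseudocount, and so does its difference of 2.94. HIST1H3C itself read 38.2, 34.3, 61.6 and 37.0 CPM in HuH7 tumours, against 55.3, 59.7 and 53.5 CPM in cultures.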

How the results depend on the processing

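The counts of replication-dependent genes called in HepG2 (40 higher, 1 lower) and called lower in PLC/PRF/5 (1) stayed within 1.5 times under all alternatives run. With totals alone Hep3B gave 1 higher and 26 lower (10 and 8 with TMM), HuH7 19 lower (11 with TMM) and PLC/PRF/5 2 higher (4 with TMM). With RLE size factors PLC/PRF/5 gave 2 higher. With GC and length trends removed Hep3B gave 3 higher and 26 lower, and HuH7 3 higher and 28 lower. Without all 4 tumours numbered 3, Hep3B gave 14 lower, HuH7 2 higher and 22 lower, and PLC/PRF/5 13 higher. Fitted alone, HuH7 gave 0 higher and 6 lower (limma) and PLC/PRF/5 18 higher, and edgeR's quasi-likelihood test gave 4 higher in HuH7. Leaving out 1 library at a time gave 3 to 18 higher and 5 to 9 lower in Hep3B, 1 to 6 higher and 7 to 12 lower in HuH7, and 1 to 3 higher in PLC/PRF/5. Of 12 correlations between the deviations of same-numbered tumours and cultures, 5 were over 0.1 (range -0.097 to 0.457), not every one in any line, so the numbers were not taken to pair samples. With a replicate block HuH7 gave 5 higher and PLC/PRF/5 1 higher, and with the block and the trends removed Hep3B gave 3 higher and 25 lower, HuH7 3 higher and 25 lower, and PLC/PRF/5 2 higher. Of 200 single calls followed, 6 values changed sign. With totals alone these were EP400 (-0.0392) and SYMPK (-0.1289) in Hep3B minus the other lines and HIRA in Hep3B (-0.1356). HIST1H2BA in PLC/PRF/5 minus the other lines was -3.337 by edgeR, and NPAT in Hep3B was 0.6488 with the trends removed and 0.8398 with the block as well. Over all settings 3502 values kept their call and direction and 392 lost the call; the cause was not tested. Genes at a few reads are limited by depth.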
